A study of Mus musculus with 35 samples.

Results

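CD8 T cells from the liver of mice on the diet labelled ND were compared between cells sorted as positive and as negative for the chemokine receptor CXCR6. The CXCR6pos fraction had 6 libraries (replicates 1 to 6) and the CXCR6neg fraction had 4 (replicates 2 to 5), which are 10 of the 32 libraries fitted and of the 35 samples labelled. The members were taken by their labels and are described across all genes. All mice were C57BL/6 and 13 months old, all of these cells were labelled hepatic CD8 T cells, and no allele or agent beyond the diet is named. The other libraries were the same liver fractions on the diet labelled CD-HFD and spleen CD8 cells negative for CX3CR1 on both diets. RNA with poly(A) tails from cells sorted straight into lysis buffer was read in bulk as 3′ end fragments. The labels do not say what ND stands for, which other markers the sort used, how many cells a library held or whether replicates were separate animals. The p-values therefore measure the spread between these samples, which may be technical.

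CXCR6 is the receptor of the membrane-bound chemokine CXCL16 and is carried by many T cells that stay in the liver. Tissue-resident CD8 T cells as a class hold more RNA of killer and inflammatory genes and less of the genes that let naive and central memory cells home to lymph nodes (such as Ccr7) and leave tissue (S1pr1, Klf2). Plasmacytoid dendritic cells are interferon-producing cells of another lineage, known by genes such as Siglech, Irf8 and Tcf4.

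Total counts ran from 187664 to 494700 in 5 of the CXCR6pos libraries and from 165811 to 419019 in the CXCR6neg libraries. CXCR6pos replicate 1 had 15633 counts, so that a count of 0 there allows up to 148 CPM (counts scaled to library size, with TMM factors), against 6.47 to 20.01 CPM in the other 9 libraries (3 counts each, counting error only). The column named for ND liver CXCR6neg replicate 1 equalled an ND spleen column in all 22865 genes and was left out. A column named for a further ND liver CXCR6neg library, replicate 6, has no labelled sample and was not used. The CD8 and CD3 genes were present in both fractions. Cd8a, a chain of the CD8 coreceptor, averaged 1349 ± 322 CPM in CXCR6pos and 1122 ± 262 CPM in CXCR6neg (SD, n = 6 and 4, the same for the group means that follow). Cd8b1, the other CD8 chain, averaged 1991 ± 507 CPM in CXCR6pos and 2031 ± 373 CPM in CXCR6neg. Cd3e, part of the T cell receptor complex, averaged 1100 ± 211 CPM in CXCR6pos and 1103 ± 25.4 CPM in CXCR6neg.

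Cxcr6 RNA, the transcript of the receptor used for the sort, overlapped between the fractions. It was at 295, 449.8, 723, 812, 548 and 201 CPM in CXCR6pos replicates 1 to 6, from 6, 76, 225, 243, 254 and 80 counts. It was at 40.0, 194, 450 and 227 CPM in CXCR6neg replicates 2 to 5, from 6, 43, 182 and 64 counts. The library labelled ND CXCR6pos replicate 6 was the lowest of its fraction and lay below the libraries labelled ND CXCR6neg replicates 4 and 5. The library labelled ND CXCR6neg replicate 4 lay above CXCR6pos replicates 1 and 2 and the library labelled ND CXCR6pos replicate 6, by a margin of less than 1 count for replicate 2. In all, 3 CXCR6pos libraries lay within the range of CXCR6neg. The difference of the means was 1.38 on the log2 scale (exact permutation test over the 10 libraries, two-sided, p = 0.0571, where 210 arrangements allow a p of 0.00476 at the least). In the fit across all genes the log2 fold change was 1.07 ± 0.34 (SE; edgeR quasi-likelihood, adjusted p = 0.307). On CD-HFD the same fractions did not overlap, at 573 to 867 CPM in 5 CXCR6pos libraries and 52.9 to 124 CPM in 6 CXCR6neg libraries.

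A set of 17 genes of plasmacytoid dendritic cells separated the libraries along the sort, with 1 exception. Their summed level was 148, 278, 222, 214, 272 and 1894 CPM in CXCR6pos replicates 1 to 6. It was 1654, 1811, 949.5 and 2058 CPM in CXCR6neg replicates 2 to 5. The library labelled ND CXCR6pos replicate 6 thus held these genes at the level of the CXCR6neg libraries. There 17 of 17 genes were detected, as in each CXCR6neg library, against 8 to 13 of 17 in CXCR6pos replicates 2 to 5. CXCR6pos replicate 1 had 2 of 17, on 3 counts over these genes, so its low number may reflect its depth. Results are therefore given with and without the library labelled ND CXCR6pos replicate 6. They are also given without it together with the library labelled ND CXCR6neg replicate 4. Both were picked by measured values, so the fits without them describe the remaining libraries and are no independent test.

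**Figure D1:**
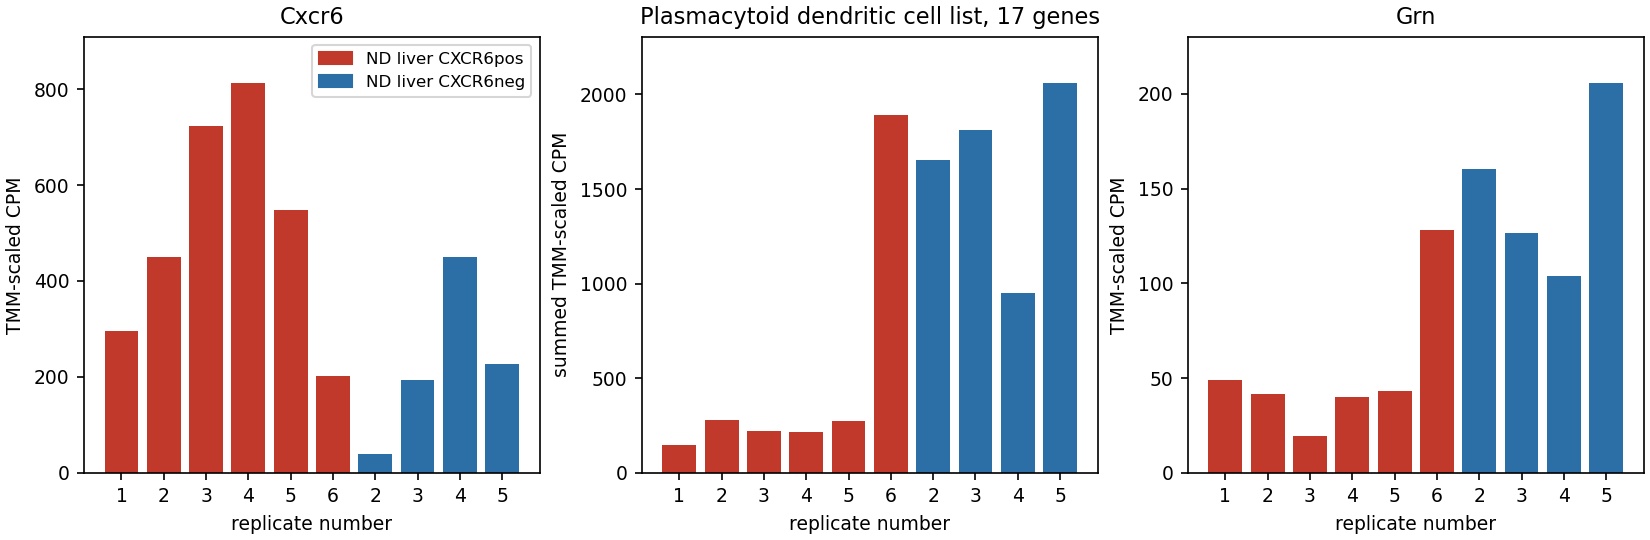
Bars give the TMM-scaled CPM of Cxcr6 (left), the sum over the 17 genes of plasmacytoid dendritic cells (middle) and Grn (right) in each ND liver library, CXCR6pos in red and CXCR6neg in blue. The red bar of replicate 6 is the lowest of its fraction for Cxcr6 and stands at 1894 and 128 CPM in the other panels, among the blue bars.

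Of 6174 genes tested, 2 passed an adjusted p of 0.05 between the fractions (0.0324%). Both fell in CXCR6pos (0.0324%), and 0 rose (0%), while at an unadjusted p under 0.05 there were 224 genes with a higher mean (3.63%) and 277 with a lower one (4.49%), together 8.11% of genes. DESeq2 called 0 genes at the adjusted threshold and 613 of 22378 at the unadjusted one. A gene with no overlap between the 6 CXCR6pos and the 4 CXCR6neg libraries was uncommon, with 24 genes wholly higher (0.389%) and 40 wholly lower in CXCR6pos (0.648%), where a count of 0 in CXCR6pos replicate 1 was taken as 0. Over all genes tested the log2 fold changes had a median of -0.01.

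Grn (chromosome 11, 102430315 to 102437048, plus strand, GRCm38), which codes for the secreted and lysosomal growth factor progranulin, was 1 of the 2 that passed. It was at 49.2, 41.4, 19.3, 40.1, 43.1 and 128 CPM in CXCR6pos replicates 1 to 6, from 1, 7, 6, 12, 20 and 51 counts. It was at 160, 127, 104 and 206 CPM in CXCR6neg replicates 2 to 5, from 24, 28, 42 and 58 counts. CXCR6pos replicates 1 to 5 lay below every CXCR6neg library, and the library labelled ND CXCR6pos replicate 6 lay among them. The log2 fold change was -1.33 ± 0.27 (adjusted p = 0.0461), and it was -1.99 without that library. The order of the libraries by Grn set the same library apart as the plasmacytoid dendritic cell genes did, and their part in the Grn difference was not tested. In bulk libraries, fewer cells of a type and less RNA per cell cannot be told apart. The 250 bases before the RefSeq start of Grn and of Siglech, the plasmacytoid dendritic cell gene with the same library pattern, are shown, both on the plus strand of GRCm38.p6. The gene coordinates are from GENCODE, whose starts differ: most of the Grn window, both matches included, lies inside the gene as GENCODE draws it, and the Siglech window ends a few bases inside. Capitals mark GAGGAA, the core letters bound by the myeloid and plasmacytoid dendritic cell factors PU.1 and SPIB, searched on both strands (the reverse strand reads TTCCTC) and chosen after the sequences had been read.
Grn, chr11:102430257-102430506: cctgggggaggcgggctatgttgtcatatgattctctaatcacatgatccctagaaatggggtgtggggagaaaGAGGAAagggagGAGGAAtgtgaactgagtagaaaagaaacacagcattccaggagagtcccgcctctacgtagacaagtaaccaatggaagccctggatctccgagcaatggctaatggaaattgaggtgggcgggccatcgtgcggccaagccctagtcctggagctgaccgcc
Siglech, chr7:55767934-55768183: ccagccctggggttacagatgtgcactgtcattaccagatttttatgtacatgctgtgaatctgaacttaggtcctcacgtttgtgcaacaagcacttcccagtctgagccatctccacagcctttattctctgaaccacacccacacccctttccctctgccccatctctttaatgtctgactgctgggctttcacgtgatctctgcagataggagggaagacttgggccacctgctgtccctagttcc
The Grn window held 2 matches and the Siglech window 0. A match was held by 23.3% of the 32851 promoter windows of this length, and by 1 of the 11 listed plasmacytoid dendritic cell genes found there. A match is only a description of the letters.

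The other gene that passed, n-R5-8s1, is annotated as a ribosomal RNA gene. It was at 0, 5.92, 6.42, 6.68, 6.47 and 12.6 CPM in CXCR6pos replicates 1 to 6 and at 6.67, 94.9, 94.0 and 14.2 CPM in CXCR6neg replicates 2 to 5. CXCR6neg replicate 3 and the library labelled ND CXCR6neg replicate 4 stood high and the other 8 libraries low, with overlap between the fractions. Its log2 fold change was -2.84 ± 0.57 (adjusted p = 0.0461). Ribosomal RNA has no poly(A) tail as a rule, and its copies in the genome are near-identical, so its counts are uncertain. Neither call held in every fit. Grn passed in 2 of the 10 fits that left out 1 library, without the library labelled ND CXCR6pos replicate 6 or ND CXCR6neg replicate 4, and n-R5-8s1 in 3.

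The plasmacytoid dendritic cell genes had lower means in CXCR6pos in 16 of 16 members tested, against 51.9% of all genes, with a median log2 fold change of -1.47. None passed the adjusted threshold, and 12 of 16 had an unadjusted p under 0.05 (4.49% of all genes lower). The list was chosen with earlier results of these data known. Members near 0 in most CXCR6pos libraries could pass the expression filter only through libraries where they are high. These counts of lower members are therefore no independent test. Siglech, a surface lectin that marks these cells in mice, was at 0, 0, 0, 6.68, 4.31 and 133 CPM in CXCR6pos replicates 1 to 6 and at 147, 158, 64.3 and 206 CPM in CXCR6neg replicates 2 to 5. Irf8, a transcription factor of dendritic cells, was at 0, 17.8, 28.9, 23.4, 15.1 and 236 CPM in CXCR6pos and at 207, 248, 116 and 301 CPM in CXCR6neg. Both were low in CXCR6pos replicates 2 to 5 and at the CXCR6neg level in the library labelled ND CXCR6pos replicate 6. CXCR6pos replicate 1 had 0 counts of both, which allows up to 148 CPM, so it cannot show whether they were low there. Their log2 fold changes were -2.03 ± 0.59 for Siglech (adjusted p = 0.244) and -1.58 ± 0.49 for Irf8 (adjusted p = 0.274). Klk1, a kallikrein protease, was at 47.8 CPM in the library labelled ND CXCR6pos replicate 6 and at 0 to 6.42 CPM in CXCR6pos replicates 2 to 5. In CXCR6neg it was at 44.5 to 53.1 CPM. CXCR6pos replicate 1 again had 0 counts and cannot show its level. Without that library, picked in part by these genes, 14 of 15 members tested fell in CXCR6pos, with a median of -4.00, where 0.677% of all genes fell. Ly6d (-5.14), Cox6a2 (-5.60) and Siglech (-5.28) had the smallest p-values of that fit. Tcf4, the factor that sets the identity of this lineage (-3.69), and Spib, a factor it works with (-4.09), were among those that fell, and were named after their values were seen.

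Cd74 and H2-Aa, genes of MHC class II presentation, followed the same libraries. Cd74, the invariant chain of MHC class II, was at 49.2, 82.9, 73.9, 63.5, 71.2 and 747 CPM in CXCR6pos replicates 1 to 6 and at 460, 515, 322 and 832 CPM in CXCR6neg replicates 2 to 5. H2-Aa, an MHC class II chain, was at 148, 59.2, 54.6, 30.1, 62.6 and 312 CPM in CXCR6pos and at 200.1, 262, 151 and 344 CPM in CXCR6neg. In both genes the library labelled ND CXCR6pos replicate 6 lay within the CXCR6neg range and the other 5 below it. Their log2 fold changes of -1.27 ± 0.51 and -1.07 ± 0.45 did not pass (adjusted p = 0.471 and 0.507), and both genes fell without that library (-2.88 and -2.12). Genes of MHC class I and peptide loading had a median of 0.02 over 18 tested, and 13 had a higher mean (72.2%, against 48.1% of all genes). At an unadjusted p under 0.05, 2 were higher and 0 lower (3.63% and 4.49% of all genes). Their summed level in the library labelled ND CXCR6pos replicate 6 was 20790 CPM, within the 17180 to 25360 CPM of CXCR6pos, against 21410 to 25060 CPM in CXCR6neg. Of the B cell genes, Cd79a had 2 counts in CXCR6pos and 0 in CXCR6neg, and Ms4a1 had 6 and 1. The immunoglobulin chain genes and Cd79b were not near 0. Ighm had 256 counts in CXCR6pos and 306 in CXCR6neg, Igkc 137 and 118, and Cd79b 45 and 25. Summed over 14 B cell and MHC class II genes, the level was 474 to 2071 CPM in CXCR6pos and 1115 to 2264 CPM in CXCR6neg. Listed genes of conventional dendritic cells were scarce, at 9.63 to 55.4 CPM in CXCR6pos and 42.0 to 67.8 CPM in CXCR6neg over 7 genes.

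Lysosome genes had a lower mean in CXCR6pos in 15 of 19 tested and a higher one in 4, with a median of -0.22 and 7 lower at an unadjusted p under 0.05, against 51.9% of all genes with a lower mean and 4.49% at that p. Psap, the precursor of the saposins that activate lipid hydrolases, was at 197, 213, 212, 231, 274 and 498 CPM in CXCR6pos replicates 1 to 6 and at 440.2, 474, 462 and 549 CPM in CXCR6neg replicates 2 to 5. Only the library labelled ND CXCR6pos replicate 6 overlapped (-0.73 ± 0.20, adjusted p = 0.208). The cathepsin gene Ctss did not overlap, at 0 to 138 CPM in CXCR6pos and 156 to 253 CPM in CXCR6neg (-0.66 ± 0.17, adjusted p = 0.125). Alox5ap, which serves leukotriene synthesis, was at 0 to 37.7 CPM in CXCR6pos and 27.2 to 81.5 CPM in CXCR6neg (-2.42 ± 0.55, adjusted p = 0.125). Without the library labelled ND CXCR6pos replicate 6, Grn, Psap, Ctsl and Ctsz fell among the lysosome genes, as did Ctss and Alox5ap. Grn, Psap and Alox5ap set the library labelled ND CXCR6pos replicate 6 apart, as the plasmacytoid dendritic cell genes did. Ctss did not, at 138 CPM in that library and 129 CPM in CXCR6pos replicate 5. The part of the plasmacytoid dendritic cell genes was not tested.

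Among genes with higher means in CXCR6pos, some had levels above every CXCR6neg library and yet did not pass over all genes. Of all genes tested, 0.389% were wholly higher in this way. That share is not above the 1 in 210 arrangements of 6 and 4 libraries that gives such an order. The lack of overlap alone therefore does not set these genes apart. Plekho2, a pleckstrin-domain gene, was at 67.9 to 197 CPM in CXCR6pos and 20.01 to 40.6 CPM in CXCR6neg, without overlap (1.24 ± 0.29, adjusted p = 0.0568). Serpinb9, which shields killer cells from their own granzyme B, was at 75.5 to 197 CPM in CXCR6pos and 33.4 to 71.7 CPM in CXCR6neg (0.69 ± 0.25, adjusted p = 0.360). Gimap4, a GTPase of lymphocyte survival, was at 1303 to 1670 CPM in CXCR6pos and 1143 to 1293 CPM in CXCR6neg (0.31 ± 0.10, adjusted p = 0.270). For Plekho2 and Serpinb9, CXCR6pos replicate 1 was the highest library, on 4 counts.

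Of 18 cytotoxic granule genes tested 15 had a higher mean in CXCR6pos (83.3%, against 48.1% of all genes) and 3 a lower one. Serpinb9, 1 of 18, was wholly higher, against 0.389% of all genes. The list median was 0.23, and 4 of 18 were higher at an unadjusted p under 0.05, against 3.63% of all genes. Gzmb, granzyme B, was at 689, 959, 1696, 1550, 1225 and 921 CPM in CXCR6pos replicates 1 to 6 and at 160, 406, 910 and 1052 CPM in CXCR6neg replicates 2 to 5. CXCR6neg replicates 2 and 3 lay below every CXCR6pos library, and replicates 4 and 5 among them (0.89 ± 0.33, adjusted p = 0.417). Fasl, the ligand of the death receptor FAS, was at 443, 397, 385, 368, 345 and 236 CPM in CXCR6pos and at 200.1, 172, 272 and 294 CPM in CXCR6neg. All CXCR6pos libraries but the library labelled ND CXCR6pos replicate 6 exceeded all of CXCR6neg (0.51 ± 0.14, adjusted p = 0.197). Prf1, the pore-forming protein perforin, averaged 206 ± 49.3 CPM in CXCR6pos and 219 ± 9.89 CPM in CXCR6neg (-0.05 ± 0.15, adjusted p = 0.990). Gzma, granzyme A, averaged 755 ± 202 CPM in CXCR6pos and 566 ± 363 CPM in CXCR6neg (0.40 ± 0.37). Nkg7, a granule membrane gene, averaged 4318 ± 692 CPM in CXCR6pos and 3713 ± 519 CPM in CXCR6neg (0.24 ± 0.10, adjusted p = 0.487).

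Secreted cytokines and chemokines had a list median of 0.72, with 5 of 11 tested higher and 1 lower at an unadjusted p under 0.05 (3.63% and 4.49% of all genes). Ifng, interferon gamma, was at 49.2, 266, 395, 474, 315 and 249 CPM in CXCR6pos replicates 1 to 6 and at 107, 199, 255 and 206 CPM in CXCR6neg replicates 2 to 5. CXCR6pos replicates 2 to 5 exceeded all of CXCR6neg (0.72 ± 0.20, adjusted p = 0.213). Ccl3, an inflammatory chemokine, was at 197, 491, 1506, 1503, 572 and 584 CPM in CXCR6pos and at 140, 366, 522 and 613 CPM in CXCR6neg. Here CXCR6pos replicates 3 and 4 stood above the other 8 libraries (1.05 ± 0.34, adjusted p = 0.314). Tnf (0.93 ± 0.30) and Xcl1, a chemokine that draws dendritic cells (0.86 ± 0.28), also had their highest levels in CXCR6pos replicates 3 and 4, at 366 and 414 CPM for Tnf and 488 and 598 CPM for Xcl1. In CXCR6neg they reached 184 CPM for Tnf and 218 CPM for Xcl1. Ccl5, another inflammatory chemokine, was at 19590 to 28230 CPM in CXCR6pos and 19260 to 22450 CPM in CXCR6neg (0.20 ± 0.11). The list median was 0.24 without CXCR6pos replicate 5.

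Means were higher in CXCR6pos for 12 of 15 residency genes and 12 of 19 inhibitory receptor and exhaustion genes tested, against 48.1% of all genes. In the residency list 5 of 15 had an unadjusted p under 0.05, all higher in CXCR6pos (3.63% of all genes), and the median was 0.19. Itga1, the integrin CD49a that binds collagen, was at 32.4 to 98.5 CPM in CXCR6pos and 6.67 to 46.1 CPM in CXCR6neg (0.86 ± 0.37, adjusted p = 0.498). Cd69, which keeps cells in tissue by blocking S1PR1, averaged 441 ± 70.0 CPM in CXCR6pos and 434 ± 45.5 CPM in CXCR6neg (0.06 ± 0.13). In the inhibitory receptor and exhaustion list 4 of 19 were higher at an unadjusted p under 0.05 (3.63% of all genes), with a median of 0.22. Pdcd1, the receptor PD-1, was at 49.2, 76.9, 73.9, 70.1, 19.4 and 35.2 CPM in CXCR6pos replicates 1 to 6 and at 6.67, 22.6, 19.8 and 28.3 CPM in CXCR6neg replicates 2 to 5. CXCR6pos replicate 5 lay within the CXCR6neg range and the other 5 above it (1.25 ± 0.47, adjusted p = 0.417). Cd160, a receptor of HVEM, was at 98.5, 255, 405, 341, 209 and 151 CPM in CXCR6pos and at 13.3, 140, 178 and 159 CPM in CXCR6neg, with overlap through CXCR6pos replicate 1 and the library labelled ND CXCR6pos replicate 6 (0.94 ± 0.31, adjusted p = 0.322). Tox, a factor of exhausted T cells, averaged 73.1 ± 42.9 CPM in CXCR6pos and 76.5 ± 43.8 CPM in CXCR6neg (0.22 ± 0.32).

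**Figure D2:**
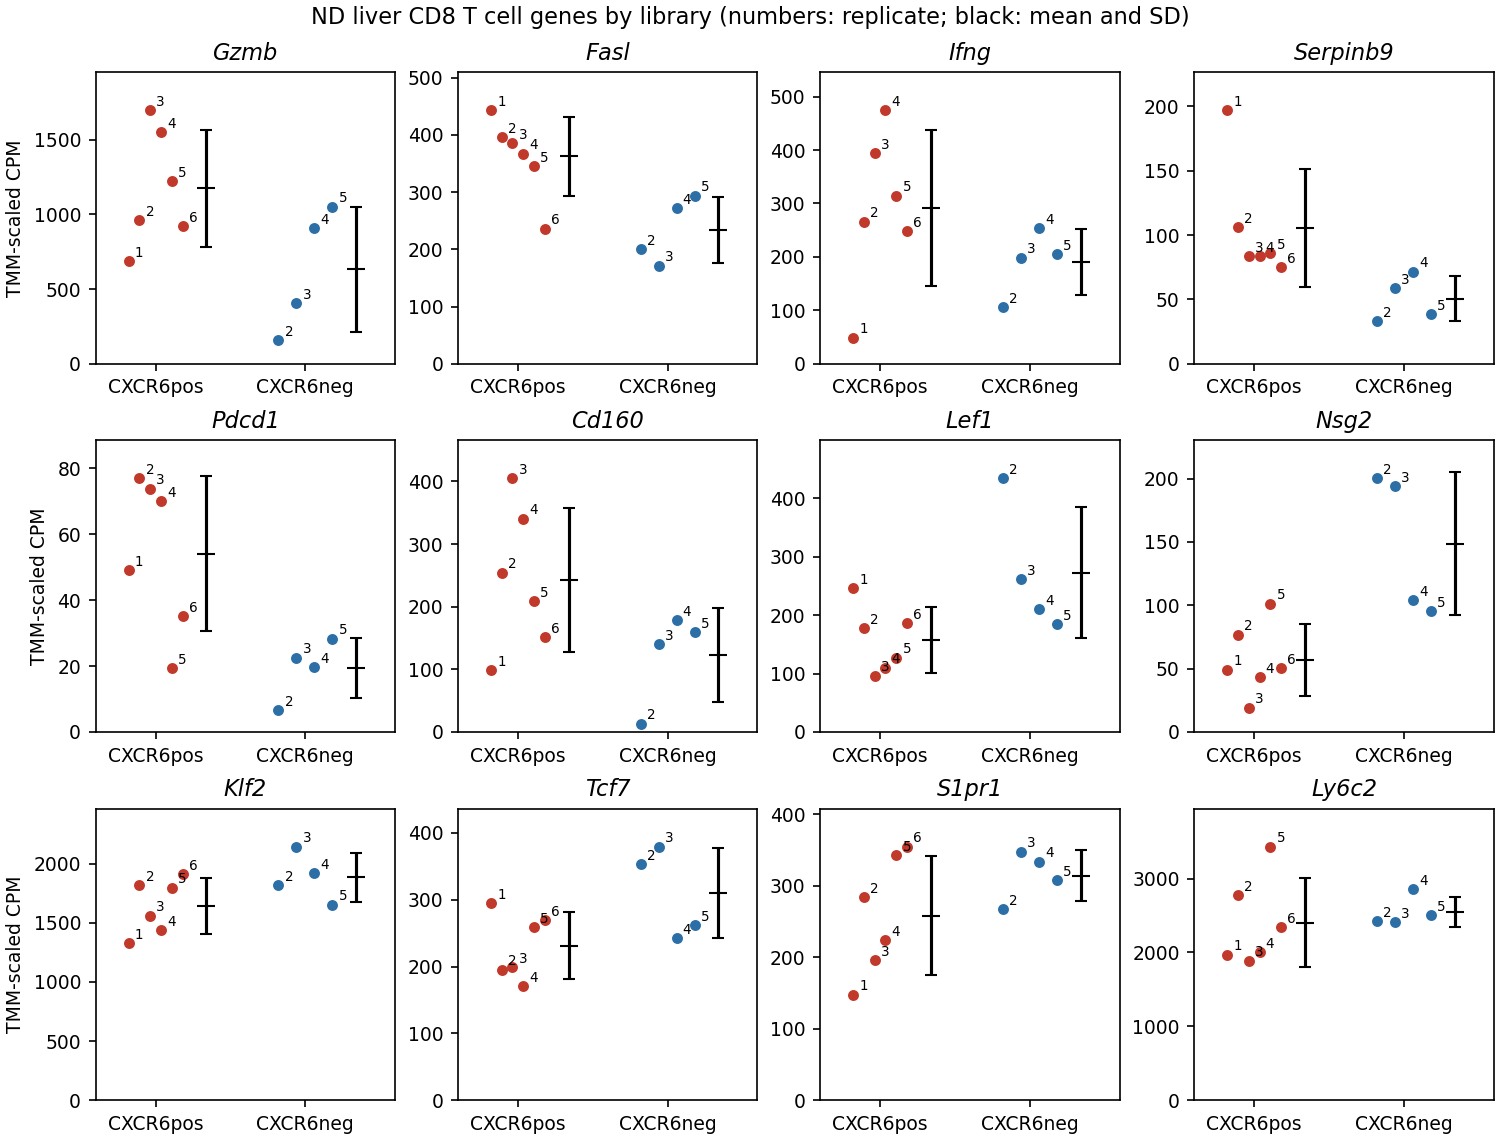
Points are ND liver libraries, labelled by replicate number, with CXCR6pos (red, 6) left of CXCR6neg (blue, 4) for 12 genes on linear axes of TMM-scaled CPM. Black marks are group means with the SD. Serpinb9 is the panel without overlap, with CXCR6pos at 75.5 CPM or more and CXCR6neg at 71.7 CPM or less.

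Genes of naive and memory T cells had lower means in CXCR6pos in 16 of 17 tested, 94.1%, against 51.9% of all genes. Their median was -0.56, and 11 of 17 were lower at an unadjusted p under 0.05, against 4.49% of all genes. Lef1, a factor of naive T cells, was at 246, 178, 96.4, 110.2, 127 and 186 CPM in CXCR6pos replicates 1 to 6 and at 434, 262, 210.2 and 184 CPM in CXCR6neg replicates 2 to 5. CXCR6pos replicate 1 and the library labelled ND CXCR6pos replicate 6 overlapped with CXCR6neg (-0.87 ± 0.22, adjusted p = 0.174). Nsg2, expressed in naive T cells, was at 49.2, 76.9, 19.3, 43.4, 101 and 50.3 CPM in CXCR6pos and at 200.1, 194, 104 and 95.6 CPM in CXCR6neg. CXCR6pos replicate 5 alone exceeded the lowest CXCR6neg library (-1.21 ± 0.29, adjusted p = 0.125). Actn1, an actin crosslinker, was at 0 to 25.9 CPM in CXCR6pos and 40.0 to 72.3 CPM in CXCR6neg (-1.18 ± 0.35, adjusted p = 0.208), again with 0 counts in CXCR6pos replicate 1, so that replicates 2 to 5 and the library labelled ND CXCR6pos replicate 6 alone show no overlap. Slamf6, a receptor of memory-like T cells that plasmacytoid dendritic cells also carry, was at 0 to 52.8 CPM in CXCR6pos and 39.0 to 86.7 CPM in CXCR6neg (-1.12 ± 0.31, adjusted p = 0.174). Tcf7, the factor TCF-1 of memory and stem-like cells, averaged 231 ± 49.7 CPM in CXCR6pos and 309 ± 67.3 CPM in CXCR6neg (-0.42 ± 0.15, adjusted p = 0.332).

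Egress and recirculation genes had lower means in CXCR6pos in 14 of 15 tested, against 51.9% of all genes. Their median was -0.24, and 3 of 15 were lower at an unadjusted p under 0.05, against 4.49% of all genes. Ccr7, a lymph node homing receptor, was at 119 to 528 CPM in CXCR6pos and 407 to 747 CPM in CXCR6neg (-0.74 ± 0.28, adjusted p = 0.456). S1pr1, the receptor for exit from tissue, averaged 258 ± 83.0 CPM in CXCR6pos and 314 ± 35.6 CPM in CXCR6neg (-0.18 ± 0.14, adjusted p = 0.878). Klf2, the factor that drives S1pr1, averaged 1643 ± 234 CPM in CXCR6pos and 1886 ± 206 CPM in CXCR6neg (-0.17 ± 0.11, adjusted p = 0.786). Il7r, the IL-7 receptor chain, averaged 291 ± 113 CPM in CXCR6pos and 364 ± 94.0 CPM in CXCR6neg (-0.18 ± 0.17, adjusted p = 0.912).

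Other receptors split between the fractions. The chemokine receptor list had a median of -0.51, with 5 of 9 tested lower at an unadjusted p under 0.05 (4.49% of all genes). Those 5 were Cxcr4, Cxcr5, Gpr183, Ccr7 and Ccr9, of which Ccr9 is also a member of the plasmacytoid dendritic cell list, and Ccr7 and Gpr183 of the egress list. Cxcr4, the receptor of CXCL12, was at 0 to 29.6 CPM in CXCR6pos and 31.9 to 73.4 CPM in CXCR6neg (-0.95 ± 0.37, adjusted p = 0.417), where CXCR6pos replicate 1 had 0 counts and so cannot show whether it overlapped. Cxcr5, the receptor for B cell follicles, was at 6.47 to 49.2 CPM in CXCR6pos and 22.2 to 66.7 CPM in CXCR6neg (-1.08 ± 0.41, adjusted p = 0.407). Cx3cr1, the fractalkine receptor of effector cells, averaged 134 ± 44.3 CPM in CXCR6pos and 104 ± 49.9 CPM in CXCR6neg (0.18 ± 0.23). Costimulation genes had a median of 0.44. Among them Cd226, an activating receptor on killer cells, was at 0, 71.0, 164, 180.4, 114 and 123 CPM in CXCR6pos replicates 1 to 6 and at 26.7, 58.7, 64.3 and 103 CPM in CXCR6neg replicates 2 to 5. CXCR6pos replicates 3 to 5 and the library labelled ND CXCR6pos replicate 6 exceeded all of CXCR6neg (0.95 ± 0.24, adjusted p = 0.125). Tnfrsf1b, the TNF receptor TNFR2, was at 52.8 to 166 CPM in CXCR6pos and 46.1 to 74.2 CPM in CXCR6neg (0.75 ± 0.24, adjusted p = 0.269).

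Markers of other cells differed in level by list. The constant genes of the gamma and delta T cell receptor chains and 3 further markers of unconventional T cells summed to 138 to 601 CPM in CXCR6pos and 152 to 266 CPM in CXCR6neg. CXCR6pos replicates 1 to 4 lay above all of CXCR6neg, and the library labelled ND CXCR6pos replicate 6 below all of it. Trdc, the delta constant gene, reached 141 and 170.4 CPM in CXCR6pos replicates 3 and 4 and 63.2 CPM at most in CXCR6neg (1.23 ± 0.72, adjusted p = 0.720). Gamma constant genes are close copies, so their single values are uncertain. Hepatocyte genes summed to 30.2 to 246 CPM in CXCR6pos and 42.0 to 60.0 CPM in CXCR6neg. The 246 CPM was CXCR6pos replicate 1, on 5 counts, and the other CXCR6pos libraries reached 57.9 CPM at most. Neutrophil genes reached 2.16 CPM in CXCR6pos and 0 in CXCR6neg, and the NK receptor gene Ncr1 had 0 counts in both. The 6 NK cell genes summed to 98.5, 166, 109, 130.3, 151 and 415 CPM in CXCR6pos replicates 1 to 6 and to 367, 420.1, 242 and 546 CPM in CXCR6neg replicates 2 to 5. The library labelled ND CXCR6pos replicate 6 again lay at the CXCR6neg level. Most of these counts came from Tyrobp, also in the plasmacytoid dendritic cell list (164 counts in CXCR6pos and 272 in CXCR6neg), Fcer1g (90 and 78) and Klrb1c (78 and 44). Globin and other erythroid genes were at 2258 to 6095 CPM in CXCR6pos and 3900 to 9011 CPM in CXCR6neg, and the part of these RNAs in the other results was not tested. Ribosomal protein genes had lower means in CXCR6pos in 65 of 73 tested, against 51.9% of all genes. Their median was -0.21, and 22 were lower at an unadjusted p under 0.05, against 4.49% of all genes.

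**Figure D3:**
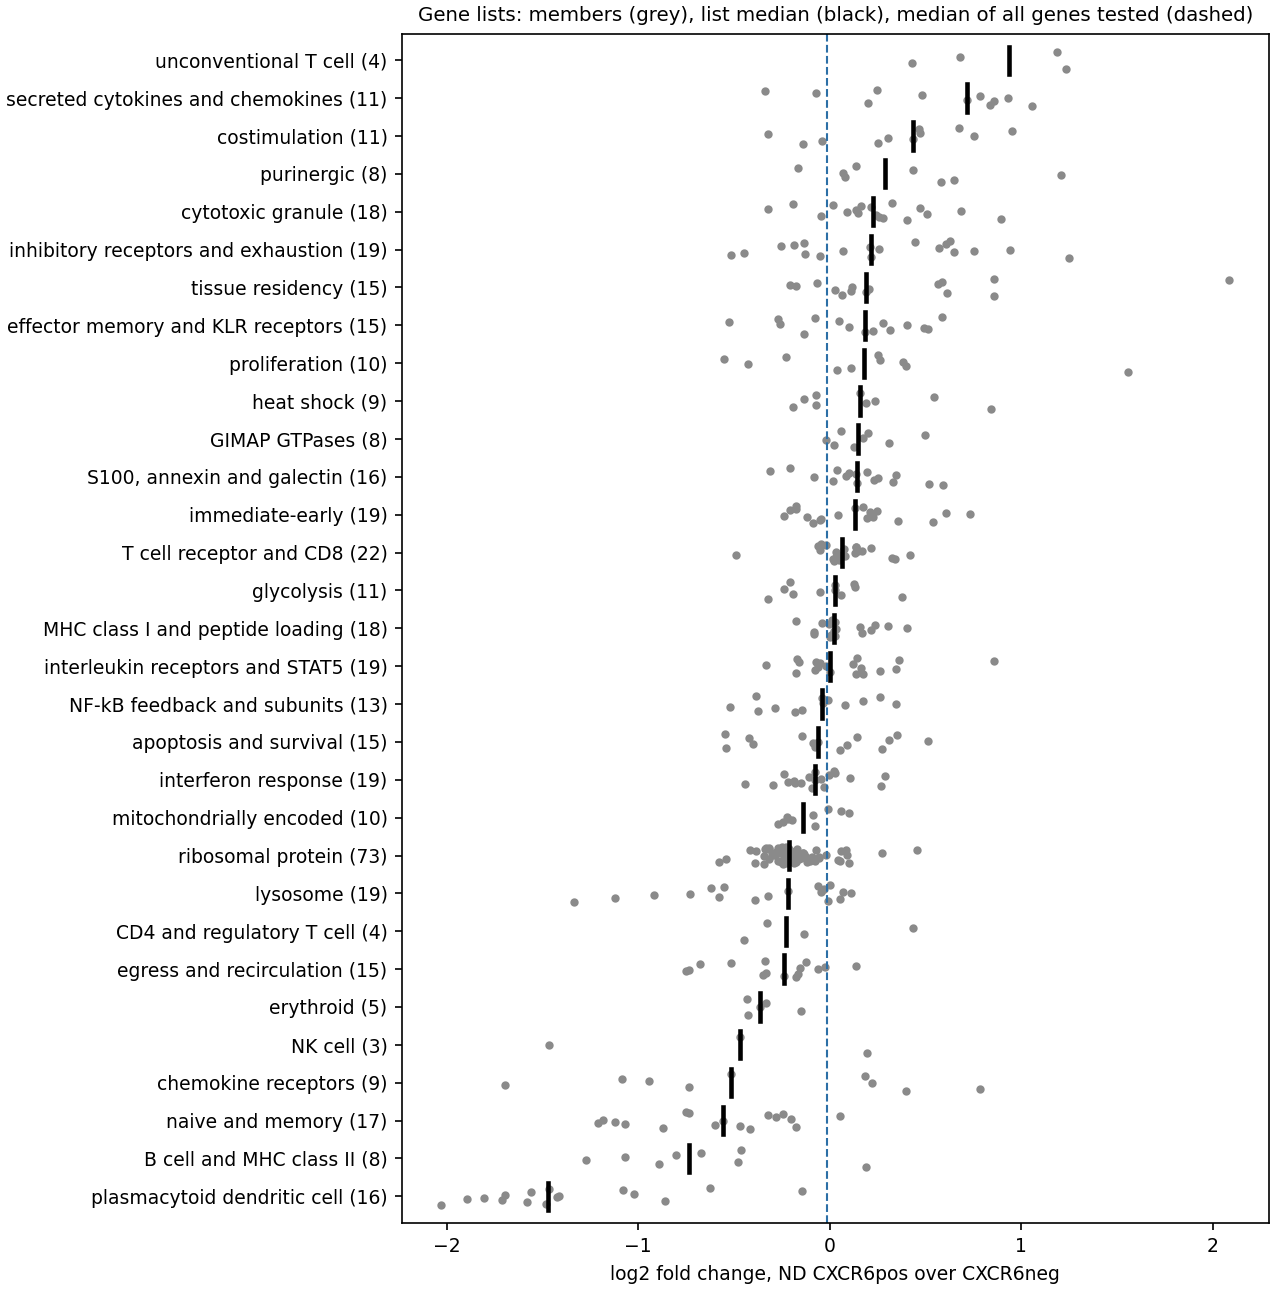
Each row is a gene list with at least 3 genes tested (number tested in brackets), each grey point is a member's log2 fold change, ND CXCR6pos over CXCR6neg, and the black bar is the list median. The dashed line is the median of all genes tested, -0.01. The secreted cytokine list lies at 0.72, the naive and memory list at -0.56 and the plasmacytoid dendritic cell list at -1.47.

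Without the library labelled ND CXCR6pos replicate 6, 17 genes rose and 41 fell in CXCR6pos, 0.281% and 0.677% of 6056 genes tested. That library was picked in part by its Cxcr6 and plasmacytoid dendritic cell gene values. The p-values of those genes in this fit are no independent test. The genes that rose included Cxcr6 (1.29 ± 0.30, adjusted p = 0.0269), Fasl (0.63 ± 0.15, adjusted p = 0.00612), Ifng (0.82 ± 0.20, adjusted p = 0.0201) and Cd226 (0.98 ± 0.25, adjusted p = 0.0254). They also included Plekho2, Gimap7, a GTPase of the GIMAP family, Cd7, a surface antigen of T and NK cells (0.81 ± 0.17, adjusted p = 0.00633), and Cish, a feedback inhibitor of STAT5 and T cell receptor signalling. Of those that fell, 14 were plasmacytoid dendritic cell genes, 3 MHC class II genes and 4 lysosome genes. In the naive and memory list Lef1 (-1.01 ± 0.23, adjusted p = 0.0118), Slamf6 and Id3, an inhibitor of E proteins named after its value was seen, fell, 3 of 17. In the egress list 1 of 15 fell, the IL-6 receptor gene Il6ra. No gene of the residency or inhibitory receptor lists passed. With the library labelled ND CXCR6neg replicate 4 left out as well, 24 genes rose and 66 fell, 0.378% and 1.04% of 6341 genes. Tcf7 (-0.62, adjusted p = 0.0327) and Nsg2 (-1.32, adjusted p = 0.0212) then fell too. Cd160 (1.34, adjusted p = 0.0472) and Entpd1, the ectoenzyme CD39 (1.40, adjusted p = 0.0342), rose.

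**Figure D4:**
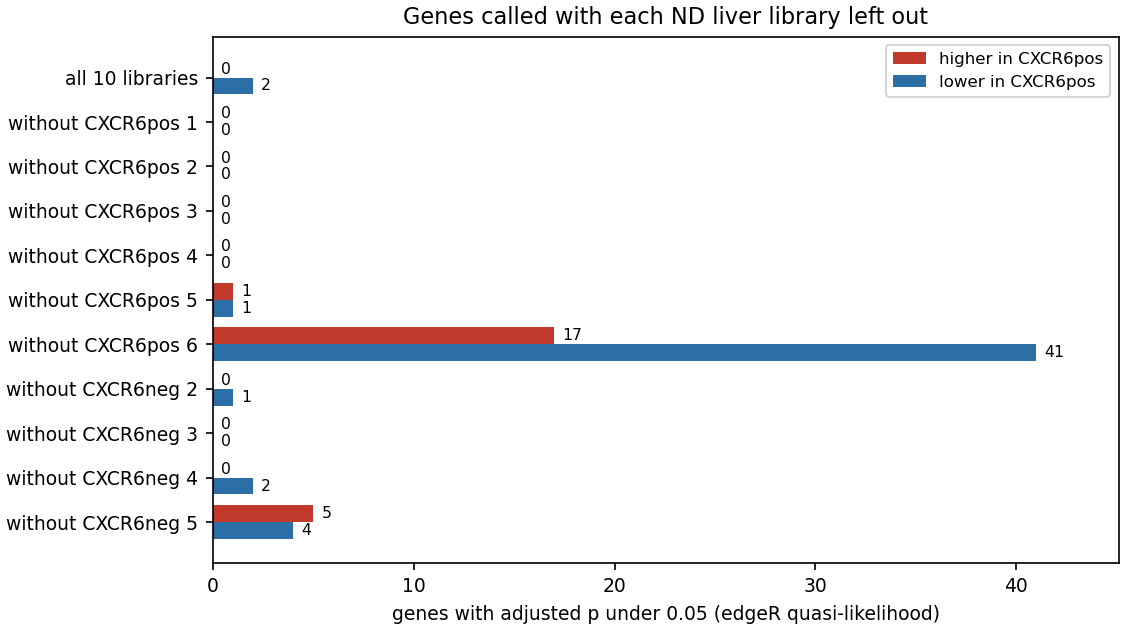
Bars count the genes with an adjusted p under 0.05 in edgeR's quasi-likelihood test, higher (red) and lower (blue) in ND CXCR6pos than in CXCR6neg, for all 10 libraries (top) and with each library left out in turn. The fit without CXCR6pos replicate 6 has 17 and 41 genes, and every other fit has 9 or fewer in all.

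The difference between the fractions on ND was then set against that on CD-HFD in the same fit, as the ND difference minus the CD-HFD difference. It passed for 89 of 6174 genes (1.44%), positive in 62 (1%) and negative in 27 (0.437%). The CXCR6 difference on CD-HFD alone had 294 genes higher (4.76%) and 394 lower (6.38%) in CXCR6pos. In the egress list 7 of 15 genes passed this test with a positive difference and 0 with a negative one. In the naive and memory list 5 of 17 passed with a positive difference and 1, Cd27, with a negative one. S1pr1 was at -0.18 ± 0.14 on ND and -2.15 ± 0.19 on CD-HFD, a difference of 1.98 ± 0.24 (adjusted p = 1.22e-09). Ly6c2, a surface antigen of memory cells, was at -0.06 ± 0.11 on ND and -1.82 ± 0.12 on CD-HFD (1.76 ± 0.16, adjusted p = 3.18e-15). Il7r (2.38 ± 0.31), Tcf7 (1.94 ± 0.26) and Klf2 (0.99 ± 0.16) likewise lay closer to 0 on ND than on CD-HFD. All 5 passed in each of the 10 fits that left out 1 ND library and in the fit without the libraries labelled ND CXCR6pos replicate 6 and ND CXCR6neg replicate 4.

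Some genes had estimates of opposite sign on the diets. In edgeR's test Xcl1, Dnajc15 and Cd226 did not pass on ND (adjusted p = 0.322, 0.93 and 0.125). Cd226 did not pass on CD-HFD either (adjusted p = 0.224), so these signs are uncertain. Xcl1 was at 0.86 ± 0.28 on ND and -1.17 ± 0.35 on CD-HFD, where it fell (difference 2.03 ± 0.45, adjusted p = 0.0141). Dnajc15, a mitochondrial co-chaperone, was at 0.12 ± 0.13 on ND and fell by 1.30 on CD-HFD (difference 1.41 ± 0.20, adjusted p = 1.19e-07). Cd226 was at 0.95 ± 0.24 on ND and -0.68 ± 0.34 on CD-HFD (difference 1.64 ± 0.42, adjusted p = 0.0191, and 0.0534 without the libraries labelled ND CXCR6pos replicate 6 and ND CXCR6neg replicate 4). The negative differences included killer and T cell receptor genes that rose on CD-HFD. Sh2d2a, the T cell adaptor TSAd, was at 0.44 ± 0.14 on ND and 1.62 ± 0.12 on CD-HFD (difference -1.18 ± 0.18, adjusted p = 1.56e-06). Cd3e was at 0.05 ± 0.10 on ND and 0.81 ± 0.10 on CD-HFD (difference -0.76 ± 0.14, adjusted p = 2.79e-04). Nkg7 (-0.62 ± 0.14), Ccl5 (-0.73 ± 0.15) and Prf1 (-0.77 ± 0.21) had smaller log2 fold changes on ND than on CD-HFD. The Prf1 difference (adjusted p = 0.0377) did not pass in 5 of the 10 fits that left out 1 ND library, nor without the libraries labelled ND CXCR6pos replicate 6 and ND CXCR6neg replicate 4 (adjusted p = 0.185). The difference for Cxcr6 itself was -1.97 ± 0.52 and did not pass (adjusted p = 0.0568), with 1.07 ± 0.34 on ND and 3.04 ± 0.38 on CD-HFD. The plasmacytoid dendritic cell genes had a median of -1.47 on ND and -4.95 on CD-HFD, and 0 of 16 passed the test of the difference. Their part in the other differences was not tested, and neither was that of the overlap in Cxcr6. Of 20 genes named here past this threshold, 13 passed without those libraries, and Ccr7, Cd226, Cd27, Cd3g, Fcer1g, Gpr183 and Prf1 did not.

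**Figure D5:**
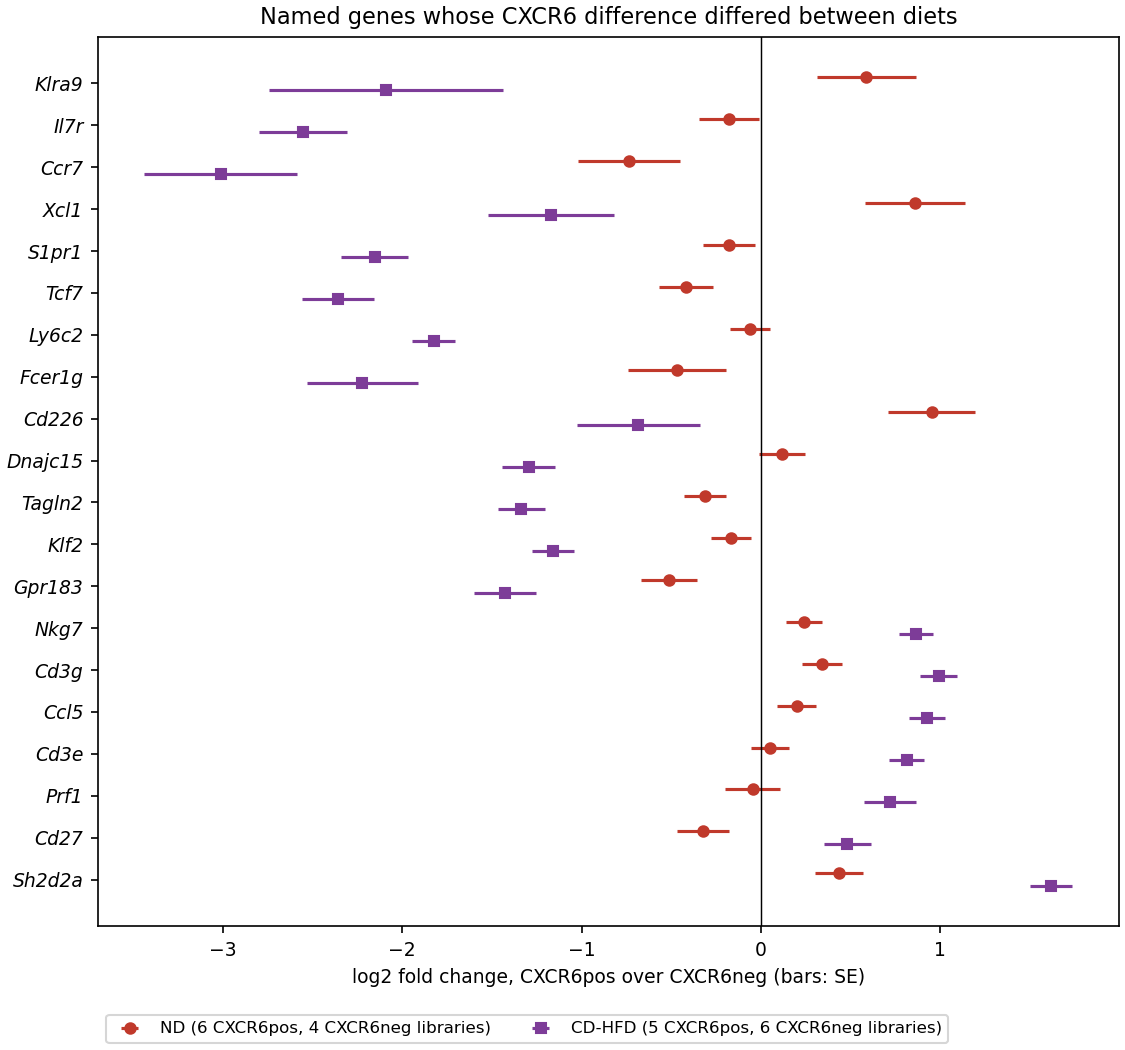
Points give the log2 fold change, CXCR6pos over CXCR6neg, with its SE, on ND (red circles) and on CD-HFD (purple squares) for the 20 named genes whose difference between diets passed, ordered by that difference from Klra9 at the top to Sh2d2a. S1pr1 lies at -0.18 on ND and -2.15 on CD-HFD.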

How the data were processed

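Polyadenylated RNA of sorted cells was reverse transcribed with barcoded oligo-dT primers carrying molecular identifiers and read on a NextSeq 500, per the labels' protocols. The authors deposited a table of whole-number counts, 1 line per gene symbol and 22865 in all, which are not normalized. The build was GRCm38.p6 and the authors used DESeq2 1.14.1, per the submitters' processing notes. For the aligner, the annotation, strand and collapsing of molecules to unique counts, nothing is given in the sources used here.

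Of 35 labelled samples, 34 matched a column by name, and 1 column, named for ND liver CXCR6neg replicate 6, has no such label and was not used. The columns of ND spleen replicate 6 and ND liver CXCR6neg replicate 1 held the same counts under labels of different groups. Neither was kept, which leaves 32 libraries in the fit. Library totals in this comparison ran from 15633 to 494700 counts, and intervals and floors (3 counts) cover counting error only.

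Genes were filtered with filterByExpr by group (6174 kept), scaled by TMM and tested by quasi-likelihood in edgeR 4.0.16 under R 4.3.3 (estimateDisp, robust glmQLFit), all 6 groups in 1 fit, no block, with Benjamini-Hochberg adjustment over all genes at 0.05. Each SE is the size of the log2 fold change over the root of its F. The biological coefficient of variation was 0.122. The interaction was the ND difference minus the CD-HFD difference in that fit. Cxcr6 was also tested by an exact permutation of libraries on log2 CPM (prior count 2). The script was tested on simulated data. Alternatives were RLE scaling, DESeq2 1.42.0, no filter, voom of limma 3.58.1 with sample weights, each library left out, low-depth libraries left out, CXCR6pos 6 and CXCR6neg 4 left out, CXCR6neg 1 kept, the ND liver libraries alone (for the interaction, the 4 liver groups), and replicate blocks. After the data were seen, fits of replicates 2 to 5 were added.

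Genes were named by a rule: past the threshold, or up to 12 in each direction with the replicate block; the 12 smallest p-values in each direction at 20 CPM or more; up to 4 per list; 22 set genes; and the 8 smallest interaction p-values. Tcf4, Spib, Id3, Ccr9, Cd79a, Cd79b, Ms4a1, Igkc and Ncr1 fall outside it. Some genes the rule allows are not reported here. A total of 39 gene lists were described by counts and medians. Members and lists were chosen with earlier results of these data known. GENCODE M21 (GRCm38) gave the coordinates, with 22662 symbols matched, and RefSeq the promoters.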

Additional observations from a re-analysis of the deposited data

Results flagged for a closer look

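Libraries that stood far from the rest of their fraction were looked for by Dixon's test in 172 groups of values, of which chance flags about 1 in 20, and 19 were found. The library labelled ND CXCR6pos replicate 6 was the high one for Grn (128 CPM), Alox5ap (37.7 CPM), Psap (498 CPM), Siglech (133 CPM), Klk1 (47.8 CPM), Irf8 (236 CPM), Tyrobp (284 CPM) and Cd74 (747 CPM). The same held for the summed genes of plasmacytoid dendritic cells (1890 CPM) and of B cells and MHC class II (2070 CPM). CXCR6pos replicate 1, with 15633 counts, was the high one for Plekho2, Serpinb9 and Tcrg-C4 (197 CPM each) and the low one for Cd8a (739 CPM), Ctss, Cxcr4 and Cd5 (0 CPM each). CXCR6neg replicate 2 was low for Klra9 (20 CPM) and the library labelled ND CXCR6neg replicate 4 was low for Cd5 (166 CPM).

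The difference between the CXCR6 fractions differed between diets, as the ND difference minus the CD-HFD difference in edgeR's interaction test, for 20 named genes. It was positive for Klra9 (2.68), Il7r (2.38), Ccr7 (2.28), Xcl1 (2.03), S1pr1 (1.98) and Tcf7 (1.94). It was positive too for Ly6c2 (1.76), Fcer1g (1.75), Cd226 (1.64), Dnajc15 (1.41), Tagln2 (1.03), Klf2 (0.993) and Gpr183 (0.912). It was negative for Sh2d2a (-1.18), Cd27 (-0.806), Prf1 (-0.768), Cd3e (-0.764), Ccl5 (-0.726), Cd3g (-0.651) and Nkg7 (-0.624).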

How the results depend on the processing

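The count of 2 genes between the ND fractions moved with most settings. It was 0 with RLE scaling, DESeq2, the low-depth libraries left out or the ND liver libraries alone, 18 with no filter (9 higher, 9 lower), 14 with voom and sample weights (0 higher, 14 lower) and 14 with CXCR6neg replicate 1 kept (6 higher, 8 lower). It was 90 without the libraries labelled ND CXCR6pos replicate 6 and ND CXCR6neg replicate 4 (24 higher, 66 lower). Leaving out 1 library gave 0 to 58 genes, 0 to 17 higher and 0 to 41 lower, with 58 without the library labelled ND CXCR6pos replicate 6 and 9 without CXCR6neg replicate 5. The Cxcr6 difference by library was 0.729 to 1.83 with 1 library left out (exact permutation p from 0.0238 to 0.202). It passed without the library labelled ND CXCR6pos replicate 6 (1.6) or ND CXCR6neg replicate 4 (1.83). Both were picked by measured values, so this is no independent test. The interaction count of 89 was 53 without both of these libraries (40 positive, 13 negative), with 38 positive under voom.

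Replicate numbers did not clearly pair the fractions. Over 4 shared numbers the same-number correlations were 0.00557 to 0.123, and others -0.105 to 0.104. In each fraction 2 of 4 libraries correlated best with their own number, so 4 pairs cannot settle whether the numbers pair. With the replicate number as a block the count was 75 in the ND liver libraries alone (33 higher, 42 lower) and 67 with all groups (19 higher, 48 lower). In the ND liver libraries alone the block leaves only replicates 2 to 5 to inform the contrast; with all groups, CXCR6pos replicate 1 also shares its block with a spleen library. Replicates 2 to 5 without a block gave 29 alone (7 higher, 22 lower) and 63 in the fit of all groups (21 higher, 42 lower), the last with 14 negative interactions. With the block the log2 fold change of Prf1 was 0.06633 in the ND liver libraries alone and 0.04728 with all groups.

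Other changes of sign were in genes with a log2 fold change near 0. Klf2 was 0.00315 with CXCR6neg replicate 1 kept. Ly6c2 was 0.01388 without both libraries, and -0.1911 to 0.0178 with 1 library left out. Prf1 was 0.05578 without both libraries, 0.06031 and 0.06752 in replicates 2 to 5 alone and in the fit of all groups, and -0.144 to 0.05611 with 1 left out. Cd69 was -0.01321 to 0.1157 and Cd8b1 -0.0551 to 0.1088 with 1 left out. The list median of chemokine receptors was -0.168 in the ND liver libraries alone. Without both libraries it was -4.19 for plasmacytoid dendritic cell genes and -1.54 for B cell and MHC class II genes, over the 8 members tested with all libraries (-1.84 over the 9 tested without both). With 1 library left out, medians were -4 to -1.21 for plasmacytoid dendritic cell, -1.35 to -0.538 for B cell and MHC class II, 0.236 to 0.859 for secreted cytokine and 0.0352 to 0.27 for proliferation genes. Where a cause is not given, the cause was not tested.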

Other observations

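The genes described here did not pass the adjusted threshold, and the first 4 belong to no list. Arrdc3, an arrestin-domain gene, was at 0 to 95.6 CPM in CXCR6pos and 0 to 28.3 CPM in CXCR6neg (1.89 ± 0.44, adjusted p = 0.0568). Osbpl3, an oxysterol-binding protein gene, was at 0 to 93.1 CPM in CXCR6pos and 6.67 to 39.0 CPM in CXCR6neg (1.43 ± 0.36, adjusted p = 0.125). Ccnd2, cyclin D2, was at 492 to 707 CPM in CXCR6pos and 348 to 504 CPM in CXCR6neg (0.46 ± 0.12, adjusted p = 0.172). Lair1, an inhibitory collagen receptor, was at 0 to 37.7 CPM in CXCR6pos and 31.6 to 63.8 CPM in CXCR6neg (-1.40 ± 0.40, adjusted p = 0.197). Irf1, an interferon-induced factor of the interferon response list, was at 148 to 236.8 CPM in CXCR6pos and 237.3 to 312 CPM in CXCR6neg (-0.45 ± 0.14, adjusted p = 0.253). The fractions nearly met without overlap, where 0.648% of all genes were wholly lower.

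The coreceptor-like genes Cd5 and Cd6, which damp T cell receptor signalling, had opposite signs. Cd5 was at 0, 166, 132, 197, 155 and 128 CPM in CXCR6pos replicates 1 to 6 and at 233, 239, 166 and 230.2 CPM in CXCR6neg replicates 2 to 5 (-0.49 ± 0.17, adjusted p = 0.307). Cd6 was at 197, 456, 391.8, 404, 287 and 372 CPM in CXCR6pos and at 200.1, 258, 279 and 344 CPM in CXCR6neg (0.42 ± 0.14, adjusted p = 0.270). Both genes overlapped between the fractions.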
